A study of Mus musculus with 2 samples.

Results

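The GATA and Zic genes encode sequence-specific zinc finger transcription factors that set cell fate in the embryo, and 10 of them were examined in mouse embryonic fibroblasts (MEFs) that had lost most of their DNA methylation. The members were the 6 genes Gata1 to Gata6 and the 4 genes Zic1, Zic2, Zic4 and Zic5, found by gene symbol among the 20906 entries that carry a symbol in a table of 29126. Each had 1 entry. GATA factors bind GATA motifs through paired zinc fingers. Gata1, Gata2 and Gata3 are best known for blood cell lineages, whereas Gata4, Gata5 and Gata6 act in heart, endoderm and gonad. Zic factors carry a run of zinc fingers related to those of the Gli proteins and act in the dorsal neural tube, neural crest and somites. Both families are expressed in particular lineages and territories, and many developmental regulators of this kind are held in check by Polycomb proteins on CpG-rich promoters elsewhere.

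The data were strand-specific mRNA-seq libraries of 50 bp single-end reads, 1 from each genotype, Dnmt1+/+ and Dnmt1-/-. In the cells called Dnmt1-/- both copies of Dnmt1, the maintenance DNA methyltransferase gene, carry a hypomorphic mutation, and both lines also lack Trp53, the gene for p53. The libraries come from cultured lines, and the strain is unknown per the labels. With 1 library per genotype no difference could be tested against replicates, and genotype and cell line cannot be told apart, so every value below describes these 2 libraries.

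Values are RPKM, reads scaled to transcript length and library size, so levels of different genes can be set side by side. A change is the difference between Dnmt1-/- and Dnmt1+/+ of log2(RPKM + 0.1), which understates the change of low genes. Folds given for single genes are plain ratios of RPKM with no pseudocount, so they are larger than the change on that scale. Changes were read against 11244 genes with a symbol, a quantification status of OK and a minimum of 1 RPKM in either library. Their median change was -0.14. Dnmt1 itself had 65.2 RPKM in Dnmt1+/+ and 14.5 in Dnmt1-/- MEFs. Trp53 was at 18.6 and 19.9 RPKM, and this mRNA does not check the null allele. The files carry no read counts. For genes with 1 annotated transcript and under 0.02 RPKM, the product of RPKM and length in kilobases was most often near 0.0185 in Dnmt1+/+ and 0.0155 in Dnmt1-/-, taken here as the worth of 1 read. Read numbers below divide by these products, use the longest annotated transcript, and are rough.

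Of 12 fibroblast markers, 11 had at least 1 RPKM in Dnmt1+/+ and 10 in Dnmt1-/- MEFs, with sums of 6159 and 3822 RPKM. Of the 11 that reached 1 RPKM, 6 were within 2-fold. Another 4 were more than 2-fold lower in Dnmt1-/-, against 10.9% of the 11244 genes, and 1 was higher, against 8.47%. The largest fall was that of Thy1, from 4.84 to 0.129 RPKM, and Pdgfra rose from 6.95 to 18.7. Markers of other cell types were mostly at or near 0. The summed RPKM of 7 erythroid and megakaryocyte markers was 2.58 in Dnmt1+/+ and 1.77 in Dnmt1-/-, with Slc4a1, Pf4 and Gp9 listed at 0 in both. For 8 leukocyte markers the sums were 0.689 and 9.77, of which Csf1r held 6.08 and Cd68 held 3.63 in Dnmt1-/-, while Ptprc was listed at 0 in both libraries. For 6 cardiac muscle markers the sums were 3.16 and 27.9 RPKM, of which Tnnt2 held 2.30 and 27.7, and Myh6 was at 0.0284 and 0.00117. No marker of endothelium, endoderm, trophoblast or neural crest reached 1 RPKM. Their sums were 0.475 and 0.679 for endothelium, 0.134 and 0.373 for endoderm, 0.357 and 0.114 for trophoblast, and 0.774 and 0.475 for neural crest and glia. Epithelial markers summed to 7.19 RPKM in Dnmt1+/+, mainly Krt19, and to 1.06 in Dnmt1-/-. Neural markers summed to 67.0 and 141 RPKM, mainly Nes, which many cultured cells express, and Pax6 went from 0.0461 to 2.16. The part of any mixed cells in the values below was not tested.

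Promoters of several members are shown first, because the cells compared differ in CpG methylation and because neighbouring Zic genes shared their direction of change. RefSeq promoters, 250 bases before to 50 bases after the first base of the transcript on GRCm38.p6, were at hand for 7 of the 10 members. Gata4, Gata6 and Zic2 had none. Capitals mark CG dinucleotides, the sequence at which Dnmt1 maintains methylation where it is present. Methylation of these promoters was not measured here, so the capitals do not mark methylated sites.

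Zic1 promoter, chr9:91365719-91366018, minus strand: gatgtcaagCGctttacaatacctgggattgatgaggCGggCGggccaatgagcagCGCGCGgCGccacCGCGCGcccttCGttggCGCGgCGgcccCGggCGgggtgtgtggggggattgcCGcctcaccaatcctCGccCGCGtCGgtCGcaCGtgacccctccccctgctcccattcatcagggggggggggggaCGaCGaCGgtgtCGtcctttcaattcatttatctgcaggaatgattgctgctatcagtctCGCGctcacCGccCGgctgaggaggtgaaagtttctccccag

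Zic4 promoter, chr9:91368722-91369021, plus strand: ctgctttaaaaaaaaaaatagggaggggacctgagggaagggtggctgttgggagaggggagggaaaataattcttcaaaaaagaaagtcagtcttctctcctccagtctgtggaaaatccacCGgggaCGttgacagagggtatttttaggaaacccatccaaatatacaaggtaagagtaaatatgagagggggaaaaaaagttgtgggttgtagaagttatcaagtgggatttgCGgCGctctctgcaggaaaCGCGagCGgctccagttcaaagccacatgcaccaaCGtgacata

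Zic5 promoter, chr14:122465609-122465908, minus strand: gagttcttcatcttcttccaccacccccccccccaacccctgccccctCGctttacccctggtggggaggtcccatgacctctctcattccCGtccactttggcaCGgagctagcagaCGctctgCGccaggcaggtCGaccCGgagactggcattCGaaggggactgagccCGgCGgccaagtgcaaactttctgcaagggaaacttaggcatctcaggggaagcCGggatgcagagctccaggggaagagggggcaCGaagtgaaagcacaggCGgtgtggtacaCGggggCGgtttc

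Gata2 proximal promoter, chr6:88198414-88198713, plus strand: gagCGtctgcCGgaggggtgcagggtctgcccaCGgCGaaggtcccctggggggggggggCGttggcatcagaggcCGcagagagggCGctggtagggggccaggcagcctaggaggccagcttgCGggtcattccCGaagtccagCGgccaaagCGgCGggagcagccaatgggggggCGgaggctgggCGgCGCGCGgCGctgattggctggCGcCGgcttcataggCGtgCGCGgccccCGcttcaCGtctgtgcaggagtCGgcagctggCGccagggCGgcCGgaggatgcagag

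Gata1 promoter, chrX:7967861-7968160, minus strand: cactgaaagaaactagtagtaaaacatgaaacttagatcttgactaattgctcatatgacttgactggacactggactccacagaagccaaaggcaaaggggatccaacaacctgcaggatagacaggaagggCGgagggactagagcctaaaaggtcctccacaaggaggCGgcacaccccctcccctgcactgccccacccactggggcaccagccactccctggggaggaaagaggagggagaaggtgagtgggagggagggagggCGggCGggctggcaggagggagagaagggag

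The promoter of Zic1 held 31 CG dinucleotides in 300 bases, more than 89.4% of 32851 RefSeq promoters of this length, whose median was 7. The proximal promoter of Gata2 held 29 and its distal promoter 32. Gata5 had 26 and Gata3 had 22. Zic5 had 15, and the Zic4 promoter, with 8, was close to the median. Gata1 stood lowest with 4. The 7 members with a promoter at hand thus ranged from CG-poor to CG-rich. For genes with more than 1 annotated transcript, such as Zic4 with 12, the promoter at hand need not be the only one. Gata4, Gata6 and Zic2 are outside this comparison, and a relation between CG number and RNA was not tested. Gata1 with 4 and Gata5 with 26 were listed at 0 in both libraries. Zic1 with 31 and Zic4 with 8 were lower in Dnmt1-/-, and Gata2, Gata3 and Zic5 were higher.

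Of the 10 members, 8 had status OK, and 7 had at least 1 RPKM in either library. Among these 7, the Dnmt1-/- value was more than 2-fold higher for 3, namely Gata2, Gata4 and Zic2, against 8.47% of the 11244 genes. Another 2, Zic1 and Zic4, were more than 2-fold lower, against 10.9%. Low genes varied more, and of the 4751 genes kept that stayed under 10 RPKM in both libraries, as all members did, 12.1% were higher and 17.1% lower. Gata3 and Gata6 were within 2-fold. Of the 5 members past 2-fold, 4 (Gata4, Zic1, Zic2 and Zic4) reached 1 RPKM in 1 library only and thus passed the minimum through the library where they were high, so the counts are a description of these genes. Of the 3 members at or above 1 RPKM in both libraries, Gata2 was past 2-fold and Gata3 and Gata6 were not. The remaining member with RNA was Zic5, which ended just under 1 RPKM.

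**Figure D1:**
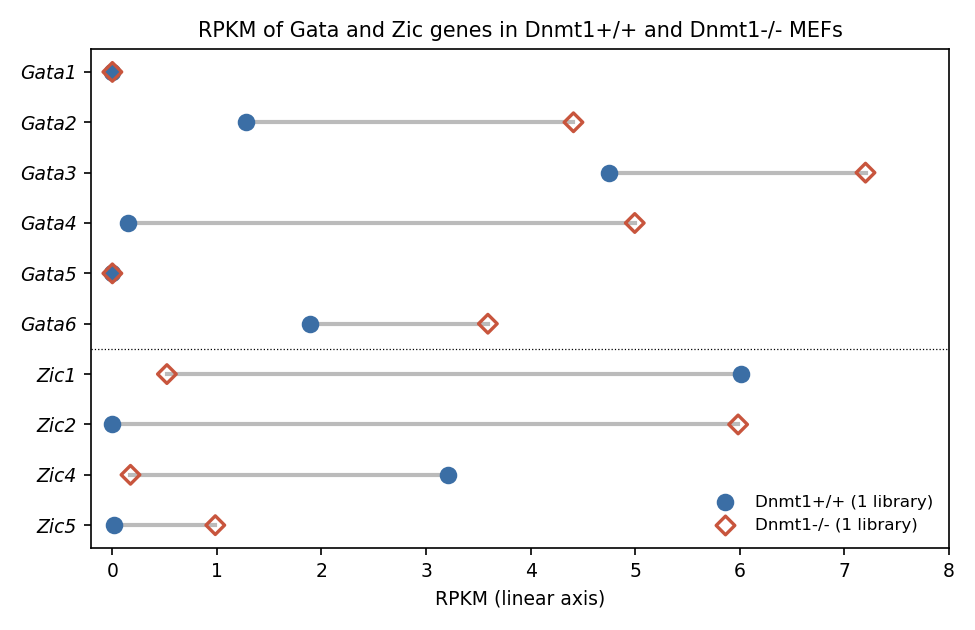
RPKM of each of the 10 genes (linear axis) in the 1 Dnmt1+/+ library (filled circles) and the 1 Dnmt1-/- library (open diamonds), joined by a line per gene. Gata1 and Gata5 sit at 0 in both libraries, the other 4 Gata genes are higher in Dnmt1-/-, and Zic1 and Zic4 lie opposite to Zic2 and Zic5.

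Gata3, known for T lymphocytes and many epithelia, was the highest Gata gene in both libraries. It had 4.75 RPKM in Dnmt1+/+, about 825 reads, and 7.20 RPKM in Dnmt1-/-. The log2 change was 0.59. Its entry spans 9778705 to 9800259 of chromosome 2 in mm9, on the minus strand. The annotated Gata3 gene extends further upstream, to 9811661, outside the entry. In Dnmt1+/+ only 26.7% of the 11244 genes had a lower level than Gata3, so even the leading Gata gene was a low-level transcript.

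Gata2, which maintains blood stem and progenitor cells, had 1.28 RPKM in Dnmt1+/+ and 4.41 in Dnmt1-/- MEFs. The RPKM ratio was 3.45-fold and the log2 change with the pseudocount 1.71, and 589 of the 11244 genes had a larger increase. The entry ran from 88148658 to 88157026 of chromosome 6 on the plus strand. When the proximal promoter shown above was matched to mm9, the entry began at exactly the first base of that promoter's transcript. The printed bases before the first base of the transcript lay outside the entry. The distal first exon, 4773 bp upstream, lay outside it. The values therefore belong to an entry that starts at the proximal promoter, and distal transcripts were not measured apart.

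Gata1, the master regulator of red cells and megakaryocytes on the X chromosome, was listed at 0 in both libraries with status NOTEST, which marks entries with too few alignments for a test. Gata5, an endoderm and heart valve gene on chromosome 2 from 180059793 to 180069384, had the same status and the same listing. No fold is given for either gene.

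Gata4, required for heart and gonad, showed the largest change of the Gata family. Its RPKM was 0.151 in Dnmt1+/+, about 28 reads, and 4.997 in Dnmt1-/-, about 1096 reads. The RPKM ratio was 33.2-fold. The log2 change was 4.35, which 134 of the 11244 genes exceeded, and it was 2.38 with a pseudocount of 1. The gene lies on the minus strand of chromosome 14, and its entry ran from 63817752 to 63864097. The annotated gene reaches further upstream, to 63890529, and that stretch lies outside the entry. In Dnmt1+/+ MEFs Gata4 stood below Gata2, Gata3 and Gata6, and in Dnmt1-/- MEFs it was second to Gata3.

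Gata6, a regulator of endoderm, heart and vascular smooth muscle, lies on chromosome 18 from 11052490 to 11085633, on the plus strand. It had 1.89 RPKM in Dnmt1+/+ and 3.59 in Dnmt1-/-, which gives a log2 change of 0.89 and an RPKM ratio of 1.90-fold. The change lay just within the 2-fold limit, and it passed the limit, at 1.03, once the median change of all genes kept was subtracted.

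All 4 Gata genes with RNA thus had the higher value in Dnmt1-/- MEFs. Together the family had 8.07 RPKM in Dnmt1+/+ and 20.2 in Dnmt1-/-, and the log2 change of the sum was 1.32. Its composition also differed. Gata3 held 58.9% of the family's RPKM in Dnmt1+/+ and 35.7% in Dnmt1-/-, whereas the share of Gata4 went from 1.87% to 24.7%. Gata2 held 15.8% and 21.8%, and Gata6 held 23.5% and 17.8%. The order in Dnmt1+/+ was Gata3, Gata6, Gata2 and Gata4, and in Dnmt1-/- it was Gata3, Gata4, Gata2 and Gata6, with a range from 3.59 to 7.20 RPKM. Whether neighbours in these orders differ beyond replicate error cannot be said with 1 library each.

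**Figure D2:**
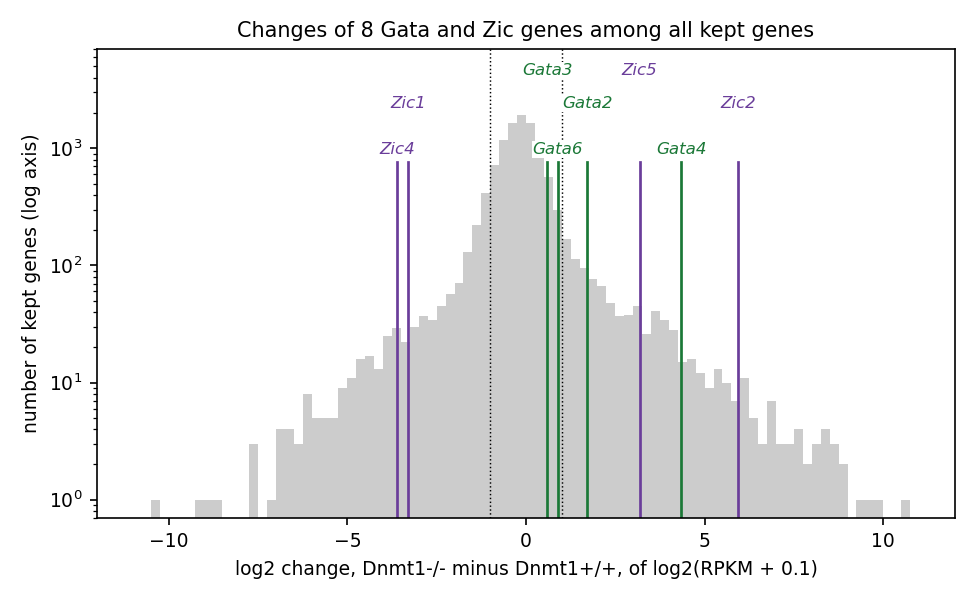
Histogram of the log2 change (Dnmt1-/- minus Dnmt1+/+, of log2(RPKM + 0.1)) of the 11244 genes kept, with the number of genes on a log axis. Coloured lines mark the 8 Gata (green) and Zic (purple) genes with RNA, Zic5 being under the 1 RPKM minimum, and dotted lines mark 2-fold. Zic2 at 5.93 and Gata4 at 4.35 lie in the upper tail, and Zic4 at -3.60 and Zic1 at -3.30 in the lower tail.

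The Zic genes form 2 head-to-head pairs, and the pairs had opposite directions. Zic1, which acts in cerebellum, dorsal neural tube and somites, occupies 91253392 to 91260642 of chromosome 9 on the minus strand. Zic4, its partner in cerebellar development, occupies 91263727 to 91284186 on the plus strand. Their facing ends were 3084 bp apart in the deposited entries. On chromosome 14, Zic5 runs from 122858382 to 122864880 on the minus strand, and Zic2, required for forebrain and neural tube closure, from 122874597 to 122879550 on the plus strand, 9716 bp away.

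Zic1 had 6.01 RPKM in Dnmt1+/+, the highest value of any member in that library, and 0.522 in the Dnmt1-/- library. The log2 change was -3.30, or -2.20 with a pseudocount of 1, and 181 of the 11244 genes had a more negative one. Zic4 was at 3.21 RPKM in Dnmt1+/+, about 675 reads, and 0.173 in Dnmt1-/-, about 44 reads. The RPKM ratio was 18.5-fold, lower in Dnmt1-/-. The log2 change was -3.60, or -1.84 with a pseudocount of 1. Zic1 was 1.87 times as high as Zic4 in Dnmt1+/+ and 3.01 times as high in Dnmt1-/-, so the lead of Zic1 was kept in both libraries.

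Zic2 had 5.99 RPKM in Dnmt1-/- MEFs, about 1011 reads, and its Dnmt1+/+ value was 0. No fold is given against a value of 0. On the log2(RPKM + 0.1) scale the change was 5.93, a value that depends on the pseudocount, and 56 of the 11244 genes had a larger one. Among these genes 86 were listed at 0 in Dnmt1+/+ and reached 1 RPKM in Dnmt1-/-, and Zic2 was one of them. Zic5 was at 0.0197 RPKM in Dnmt1+/+, about 5 reads, and 0.984 in Dnmt1-/-, about 303 reads. The ratio was 49.97-fold and rests on few reads in Dnmt1+/+. Zic5 missed the minimum of 1 RPKM and is for that reason not among the 3 genes counted as higher.

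The summed RPKM of the 4 Zic genes was 9.24 in Dnmt1+/+ and 7.66 in Dnmt1-/-. On the log2 scale this is -0.27, and without Zic1 the difference turned to 1.15. The similar totals were made of different genes. Zic1 and Zic4 together held 9.22 of the RPKM in Dnmt1+/+ and 0.695 in Dnmt1-/-, and Zic2 and Zic5 together held 0.0197 and 6.97. Zic2 thus made up 0% of the family in Dnmt1+/+ and 78.1% in Dnmt1-/-, where Zic1 had gone from 65.1% to 6.81%.

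Sequence shared between genes was also examined, since reads from shared stretches could be credited to either gene. Among the 50-base stretches of their annotated transcripts, Gata1, Gata2, Gata3, Gata4, Gata6 and Zic2 shared none with protein-coding transcripts of another gene on either strand. The shares were 0.335% for Zic1, 0.260% for Zic4 and 0.0212% for Zic5, and 4.98% for Gata5. The annotated Zic4 gene starts at 91257251, inside Zic1 and on the opposite strand. The deposited entries of Zic1 and Zic4 did not overlap, but the sources used here do not say if read strand decided the assignment, so the division of reads between these 2 genes is uncertain.

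Assembled entries without a gene symbol lay near or within the Zic pairs. Within 20 kb of Zic1 or Zic4 there were 3 such entries, all with status OK. The highest, of 244 bp at 91252912 to 91253155, lies within the annotated end of Zic1 beyond its deposited entry. It had 20.8 RPKM in Dnmt1+/+ and 1.41 in Dnmt1-/-. Another, of 328 bp, lies between the deposited Zic1 and Zic4 entries but within the annotated Zic4 gene. It had 1.83 RPKM in Dnmt1+/+ and was listed at 0 in Dnmt1-/-. The third, of 368 bp and 19824 bp beyond Zic1, went from 3.82 to 0.117 RPKM.

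Between Zic5 and Zic2 there were 2 unnamed entries, both listed at 0 in Dnmt1+/+. The one 252 bp from the start of Zic5, of 184 bp at 122865133 to 122865316, had 16.6 RPKM in Dnmt1-/-. The one 369 bp from the start of Zic2, of 448 bp, had 2.51 RPKM. All 5 entries at the Zic loci had the direction of the nearest Zic genes, 3 lower and 2 higher, but 2 of the 3 lower ones may be parts of Zic1 and Zic4 themselves. Unnamed entries varied widely in general, and of 8014 with status OK and at least 1 RPKM in either library 46.1% were past 2-fold, 26.9% lower and 19.3% higher. Read numbers were not estimated for such short entries, and their strand is not given. Near Gata genes the only unnamed entries within 20 kb were 2 close to Gata1, at 128 and 88.6 RPKM in Dnmt1+/+ and 110 and 57.1 in Dnmt1-/-.

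**Figure D3:**
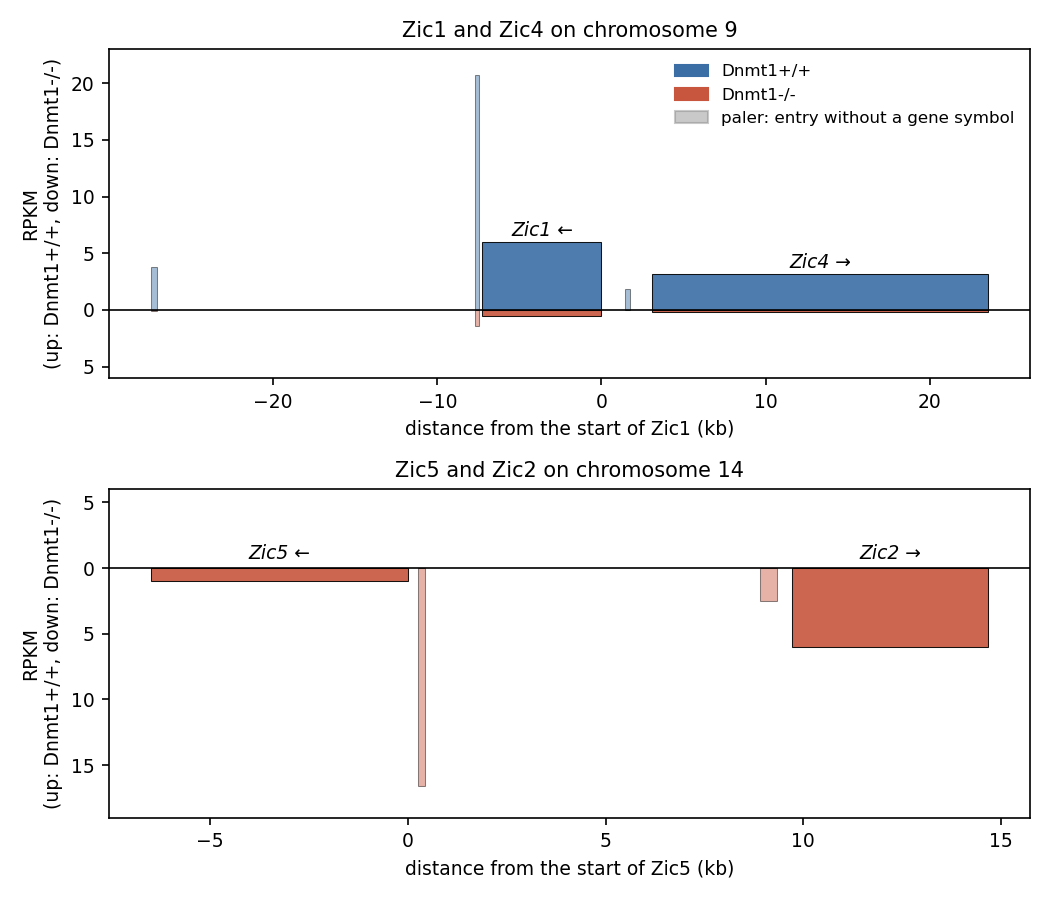
Entries at the Zic1 and Zic4 locus (upper panel) and the Zic5 and Zic2 locus (lower panel), drawn to scale by distance in kb from the start of Zic1 or Zic5, with RPKM upward for Dnmt1+/+ and downward for Dnmt1-/-. Paler bars are entries without a gene symbol and arrows give the direction of transcription. Nearly all RNA at the first locus is in Dnmt1+/+, and nearly all at the second in Dnmt1-/-.

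Beyond the Zic pairs themselves, the nearest named genes were either within 2-fold or under 1 RPKM in both libraries. Clybl, 8013 bp from Zic5, had 5.32 RPKM in Dnmt1+/+ and 3.92 in Dnmt1-/-, and Pcca, 53993 bp from Zic2, had 11.3 and 15.5, both within 2-fold. No other symbol lay within 500 kb of the Zic1 and Zic4 pair. Beside Gata2, the oligosaccharyltransferase gene Rpn1 was at 104 and 118 RPKM, and Dnajb8 was listed at 0 in both libraries. Beside Gata4, Neil2 and Blk had 0.0262 and 0.0652 RPKM in Dnmt1-/- and 0 in the other library. Mib1, the nearest gene to Gata6 at 234814 bp, was at 18.7 and 13.6 RPKM. Near the members listed at 0, Hdac6 beside Gata1 was at 10.1 and 9.13 RPKM, Glod5 on its other side was at 0 and 0.110, and BC066135 and Mir1a-1 beside Gata5 were at most at 0.00640. The lone neighbour of Gata3 within 500 kb, 4930412O13Rik, was at 0.0342 and 0.00454.

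Partners and relatives of the GATA factors were past 2-fold about as often as genes in general. Of 23 partner genes and relatives with a GATA-type zinc finger, 16 reached 1 RPKM with status OK, of which 2 were more than 2-fold higher, 1 lower and 13 within 2-fold, with a median change of -0.20, where 19.4% of the 11244 genes were past 2-fold in either direction. Nkx2-5, a cardiac homeobox partner of Gata4, went from 0.143 to 1.58 RPKM and so reached the 1 RPKM minimum in Dnmt1-/- only. Runx1, a blood regulator that acts with Gata2, went from 2.60 to 8.02. Tbx20, a cardiac T-box partner, went from 6.09 to 2.76. The FOG cofactors Zfpm1 and Zfpm2, which bind GATA zinc fingers, stayed within 2-fold at 6.99 and 4.89 and at 12.8 and 10.1 RPKM. Lmo2, which bridges Gata1 to Tal1 in blood cells, was listed at 0 in both.

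Of 9 Gli, Glis and Zic partner genes, 8 reached 1 RPKM, none was more than 2-fold higher, and 2 were lower, with a median of -0.51. Among the 11244 genes, 8.47% were more than 2-fold higher and 10.9% lower. Gli2, a hedgehog effector, went from 5.001 to 2.42 RPKM, and Glis1 from 1.16 to 0.414. Glis1 thus reached the 1 RPKM minimum in Dnmt1+/+ only. Gli2, at -1.02, came within 2-fold relative to the median change of all genes.

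Genes known as targets of these factors, or as marks of their territories, were followed in 4 lists. For comparison, 8.47% of the 11244 genes were more than 2-fold higher and 10.9% lower. Of 20 entries of blood genes targeted by Gata1, Gata2 or Gata3, 11 were listed at 0 in both libraries and 3 reached 1 RPKM, all within 2-fold with a median of 0.31. The interleukin receptor gene Il1rl1 was the highest of these, at 45.8 and 81.8 RPKM. Of 11 heart genes, 6 reached 1 RPKM, with 2 higher, 1 lower and a median of 0.27. Hand2, a bHLH factor of heart and limb, and Nppb, a natriuretic peptide gene, had 13.7 and 4.85 RPKM in Dnmt1-/-, against values of 0 in Dnmt1+/+. Slc8a1, the sodium-calcium exchanger, went from 2.21 to 0.187, and the contractile genes Tnnc1 and Actc1 stayed within 2-fold. Of the 17 endoderm and gonad genes reported here, 6 reached 1 RPKM, all within 2-fold with a median of 0.29. The list has 1 further gene that is not reported, so these values do not stand for the whole list. Of 14 genes listed as marks of Zic territories, mostly dorsal neural tube and neural crest, 5 reached 1 RPKM. Of these 5, 1 (Myf5) was higher and none lower, with a median of -0.18. Myf5, a muscle regulator first switched on in the somite, went from 0.106 to 3.28 RPKM, and Pax3 was at 11.9 and 8.58. Hand2, Nppb, Slc8a1 and Myf5 reached 1 RPKM in 1 library only, so each passed the minimum through the library where it was high.

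**Figure D4:**
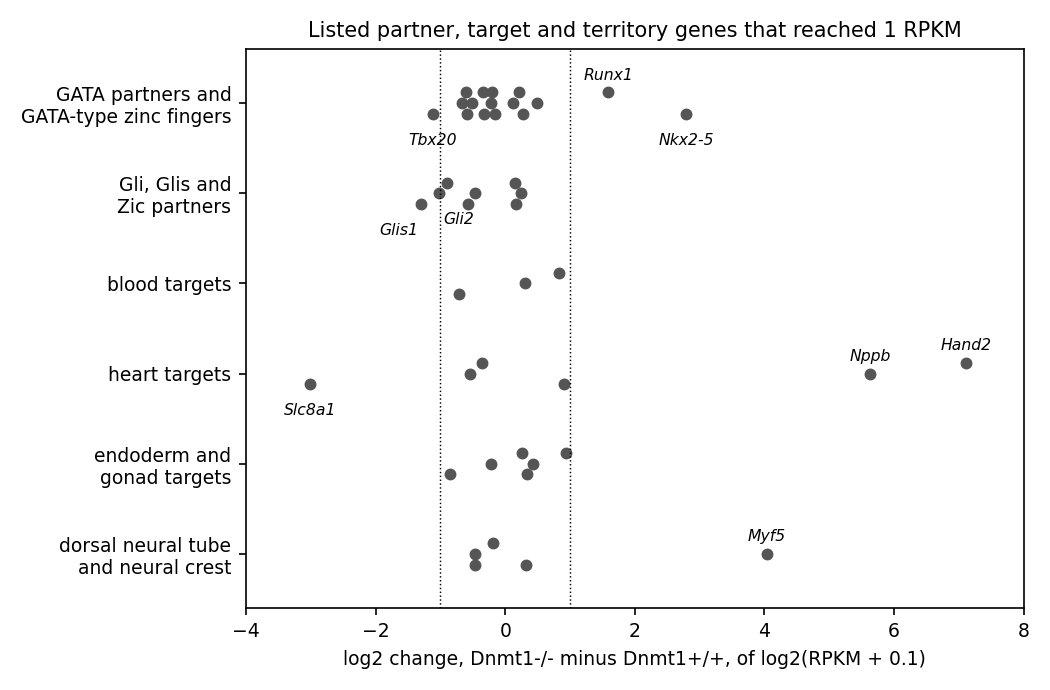
Log2 change (Dnmt1-/- minus Dnmt1+/+, of log2(RPKM + 0.1)) of each related gene reported here with at least 1 RPKM in either library, 1 row per list and 1 point per gene, with dotted lines at 2-fold. Genes past 2-fold are named. Most points lie between the lines, and Hand2 at 7.11 and Nppb at 5.63 lie furthest out.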

How the data were processed

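The mRNA-seq reads were mapped by the authors to mm9 with TopHat, transcripts were assembled with Cufflinks, and Cuffdiff gave the deposited RPKM values, 1 column per library, with a status per entry. Program versions, any scaling beyond mapped reads and the use of read strand are not given in the sources used here. The column names wt and ko were taken as Dnmt1+/+ and Dnmt1-/-, as the study's legend defines them. Read counts were not used here, so no interval is given. The deposited locus starts count from 0 and are printed here from 1. The annotation was GENCODE on NCBI37, the same assembly as mm9. RefSeq promoters are on GRCm38.p6 and were placed on mm9 by exact sequence match.

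Changes were computed with a pseudocount of 0.1 RPKM. Counts used a minimum of 1 RPKM in either library and a 2-fold limit, with members of any status, and related genes of status OK. Named were all members, up to 4 genes past 2-fold per list, the nearest gene on each side within 500 kb, unnamed entries within 20 kb, Dnmt1 and Trp53. Other related and marker genes were named after their values were seen. The members and lists were chosen with earlier results of these data known, and they include marker lists of 10 cell types. From each of 3 lists (blood targets, endoderm and gonad targets, erythroid and megakaryocyte markers) 1 gene is not reported here and was left out of the list's values. No test was possible with 1 library per genotype. Alternatives were other pseudocounts, filters and limits, and subtraction of the median change. Python 3.11.15, numpy 2.4.6, pandas 2.3.3 and matplotlib 3.10.9 were used.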

Additional observations from a re-analysis of the deposited data

How the results depend on the processing

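The number of members more than 2-fold lower was 2 under all 7 alternatives tried. The number higher was 3, became 5 with a 1.5-fold limit, which adds Gata3 and Gata6 by construction, and was 4 with no minimum RPKM, which adds Zic5, or with the median change of all genes subtracted, which adds Gata6. The 3 members at or above 1 RPKM in both libraries were 4 at a minimum of 0.5 RPKM and 1 at a minimum of 2 RPKM. The log2 change of the summed RPKM of the Gata genes, 1.32, was 1.23 with 1 RPKM added to each sum, 1.97 without Gata3 and 1.46 with the median change subtracted. That of the Zic genes, -0.27, was -0.24 with 1 RPKM added and -0.13 with the median subtracted, and it reversed to 1.15 without Zic1, since Zic2 then makes up most of the sum. A pseudocount cannot turn the direction of a single gene, but it sets the size of the change where 1 library is low. With pseudocounts of 1 and 0.01 the log2 change was 2.38 and 4.96 for Gata4, -2.20 and -3.50 for Zic1, 2.80 and 9.23 for Zic2, -1.84 and -4.13 for Zic4, and 0.96 and 5.07 for Zic5, of which 0.96 is under 2-fold. Subtraction of the median change turned the direction of none of the 8 members with RNA. No paired analysis was possible because each genotype has 1 library, and for the same reason no replicate could be left out.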
